A study of Mus musculus with 35 samples.

Results

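The nuclear genes of the mitochondrial respiratory chain were followed in the male germ cells of Smg6-cKO and control mice. Gene rows were taken by name from the count tables of pachytene spermatocytes (Spc), round spermatids (RS) and isolated chromatoid bodies (CBs): symbols beginning with Ndufa, Ndufb, Ndufc, Ndufs or Ndufv, the Sdha to Sdhd genes, and symbols beginning with Uqcr, with Cox4 to Cox8 or with Atp5. The names matched 92 of 24411 gene rows, and 89 of these had at least 10 counts in at least 3 libraries of a table. Cox4i2, Cox6a2 and Cox8b did not reach that level in any table. The 89 genes are 36 subunits and 7 assembly factors of complex I, 4 subunits of complex II, 8 of complex III, 16 genes of complex IV, 15 subunits of ATP synthase (complex V), the supercomplex factor Cox7a2l and the Atp5-named factors Atp5s and Atp5sl. Of the complex IV genes, 11 are general forms, 3 are testis forms (Cox6b2, Cox7b2 and Cox8c) and 2 are forms known from other tissues (Cox7a1 and Ndufa4l2). All 89 passed the count filter in Spc, 88 in RS, where Cox7a1 did not, and 84 in CBs.

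The mice were adults of a mixed C57Bl/6J and SV129 background. In Smg6-cKO mice exon 9 of Smg6, flanked by loxP sites, is removed by a Cre recombinase that the Ngn3 promoter drives in male germ cells, and controls were Cre-negative littermates. Spc and RS were enriched by velocity sedimentation through a BSA gradient and their poly(A) RNA was sequenced in 3 libraries per genotype and cell type, whereas CBs were immunoprecipitated with anti-DDX4 from pooled mice and sequenced without poly(A) selection in 3 cKO and 4 control libraries. CB libraries were therefore compared only with each other.

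The respiratory chain passes electrons from NADH (complex I) and succinate (complex II) through complex III and cytochrome c to complex IV, which reduces oxygen, and the proton gradient that complexes I, III and IV build drives ATP synthesis by complex V. Most subunits are encoded in the nucleus, and a small set of core subunits in the mitochondrial genome. Male germ cells replace several general subunits by testis forms from separate genes, among them COX6B2, COX7B2 and COX8C of complex IV. SMG6 is an endonuclease that cuts mRNAs in nonsense-mediated decay (NMD), and the CB is an RNA-rich granule in the cytoplasm of round spermatids.

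The libraries held 38129415 to 49940226 counts in Spc and RS and 3965541 to 16699210 in CBs. Whole-gene counts of Smg6 do not test the deletion, since they cover all its exons: its level was 199, 132 and 216 counts per 1000000 (CPM) in control RS and 175, 188 and 180.4 CPM in cKO RS. Cell type markers differed between the genotypes in RS. The summed level of 10 late spermatid markers was 28284 to 37464 CPM in control RS and 1891 to 1943 CPM in cKO RS, and that of 8 spermatid markers was 4322 to 4605 and 1356 to 1594 CPM, with all genes of both lists called lower on the TMM scale explained below (7 of the 8 spermatid markers with library size). Spermatocyte markers summed to 729.9 to 751 CPM in control RS and 967 to 1096 CPM in cKO RS, against 2429 to 2687 CPM in control Spc. Of these 9 genes 5 were called higher in cKO RS and 2 lower (7 and 0 with library size). Summed macrophage markers (10 genes) stood at 39.3, 30.7 and 48.5 CPM in control RS and at 308, 226 and 371 CPM in cKO RS. Leydig markers stood at 7.74 to 7.88 against 73.9, 27.7 and 290.3 CPM, and Sertoli markers at 52.3 to 65.9 against 138, 77.0 and 212 CPM, each with the lowest cKO sum in replicate 2 and the highest in replicate 3. In these bulk samples fewer cells of a type and less RNA per cell cannot be told apart, and the part of these differences in the results below was not tested.

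Spc of the 2 genotypes differed in few respiratory chain genes. By edgeR's quasi-likelihood test, with p values adjusted by Benjamini and Hochberg over all 17321 genes tested and a gene called at an adjusted p of at most 0.05, 3 of the 89 members were higher in cKO Spc and 8 were lower, where 14% of all genes were called higher and 14.1% lower. Fold changes are given as log2 of cKO over control ± SE. The median member differed by -0.10 and the median of all genes by -0.01. None of the 89 passed the study's own threshold of a 1.5 log2 fold change in addition, which 8.52% of all genes passed, and none did so at an unadjusted p under 0.05 or by DESeq2.

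The 3 members that rose in cKO Spc were factors rather than subunits. Ndufaf5, an enzyme that modifies a complex I subunit during assembly, stood at 10.1, 9.69 and 9.17 CPM in control Spc and at 23.5, 21.7 and 19.5 CPM in cKO Spc (log2 fold change 1.16 ± 0.13, edgeR adjusted p = 0.00252). The assembly factor gene Ndufaf3 stood at 366, 386 and 322 CPM in controls and at 589, 551 and 509 CPM in cKO Spc (log2 fold change 0.62 ± 0.09, edgeR adjusted p = 0.00563). Every cKO library lay above every control library for both genes. Atp5sl, also named Dmac2 and known as an assembly factor of complex I in spite of its Atp5 name, went from 60.0, 56.7 and 58.9 to 82.8, 89.3 and 86.2 CPM (log2 fold change 0.56 ± 0.08, edgeR adjusted p = 0.00507).

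The 8 members that fell in cKO Spc were genes of complexes I, IV and V and the factor Atp5s, and their falls were small. Ndufa4l2, a paralog of Ndufa4 known from hypoxic cells, stood at 35.2, 28.2 and 33.3 CPM in control and 21.5, 21.3 and 20.4 CPM in cKO Spc (log2 fold change -0.61 ± 0.12, edgeR adjusted p = 0.0133). Atp5g1, 1 of 3 genes for the c subunit of the ATP synthase rotor, stood at 42.0, 39.8 and 39.6 CPM and 29.9, 26.8 and 27.6 CPM (log2 fold change -0.53 ± 0.10, edgeR adjusted p = 0.0109). The accessory complex I subunit gene Ndufa13 stood at 61.2, 58.8 and 53.8 CPM and 44.7, 46.2 and 33.3 CPM (log2 fold change -0.48 ± 0.14, edgeR adjusted p = 0.0421). The groups of these 3 genes did not overlap. Such a lack of overlap, here, above and below, was a condition for naming the most changed genes, so it adds no support for them. Cox5a, which encodes a general complex IV subunit, fell from 174, 166 and 177 to 147, 142 and 132 CPM (log2 fold change -0.30 ± 0.07, edgeR adjusted p = 0.0253), and the log2 fold changes of the other 4 were -0.41 (Atp5s), -0.38 (Ndufa12), -0.35 (Ndufb7) and -0.31 (Atp5j). Most of these lower calls depended on single libraries: 5, 3 and 2 members were called lower without cKO Spc replicate 1, 2 and 3, and 3, 4 and 1 without control Spc replicate 1, 2 and 3, while the call of Atp5g1 and the 3 higher calls were made each time. Late spermatid markers summed to 4222 to 8898 CPM in control and 476 to 1559.8 CPM in cKO Spc (10 of 10 genes lower), macrophage markers to 42.5 to 49.1 and 57.6 to 86.4 CPM (9 of 10 higher), Leydig markers to 132 to 410.2 and 587 to 1215 CPM, and Sertoli markers to 347 to 927 and 187 to 277 CPM.

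No subunit of complexes II and III was called in Spc by edgeR, and none of their 12 genes passed an unadjusted p of 0.05 or was called by DESeq2. Of the 10 core subunits Cox5a was called, as given above, and the other 9 were not. Among those 9 Uqcrfs1 had the lowest log2 fold change (-0.22 ± 0.12) and Atp5b, the catalytic beta subunit of ATP synthase, the highest (0.03 ± 0.07), with Sdha, the flavoprotein of complex II, at -0.04 ± 0.08, Uqcrc1 at -0.04 ± 0.10 and Cox4i1 at 0.01 ± 0.10.

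In RS the genotypes differed in most members. With the trimmed-mean scaling of edgeR (TMM), which sets the middle of the gene-wise ratios near 0, 58 of 88 members were lower in cKO RS and 12 were higher, beside 34.3% and 38.4% of all 17492 genes tested. The median member differed by -0.50 and the median gene by 0.11 on the log2 scale. With library size in place of TMM both medians moved up together, to 0.12 for the members and 0.73 for all genes, and the member counts became 20 lower and 35 higher, beside 18.5% and 58.5% of all genes. The sign of the member median thus depends on the scaling. The distance of the member median from the median gene was -0.61 under both. As a share of all gene counts the members made up 0.529% ± 0.0102 (SD, n = 3) in control RS and 0.580% ± 0.0155 (n = 3) in cKO RS, and 0.818% ± 0.0397 and 0.813% ± 0.0635 in Spc. Changes in RS are given below on the TMM scale, and the scaling is named again where it reverses a gene.

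**Figure D1:**
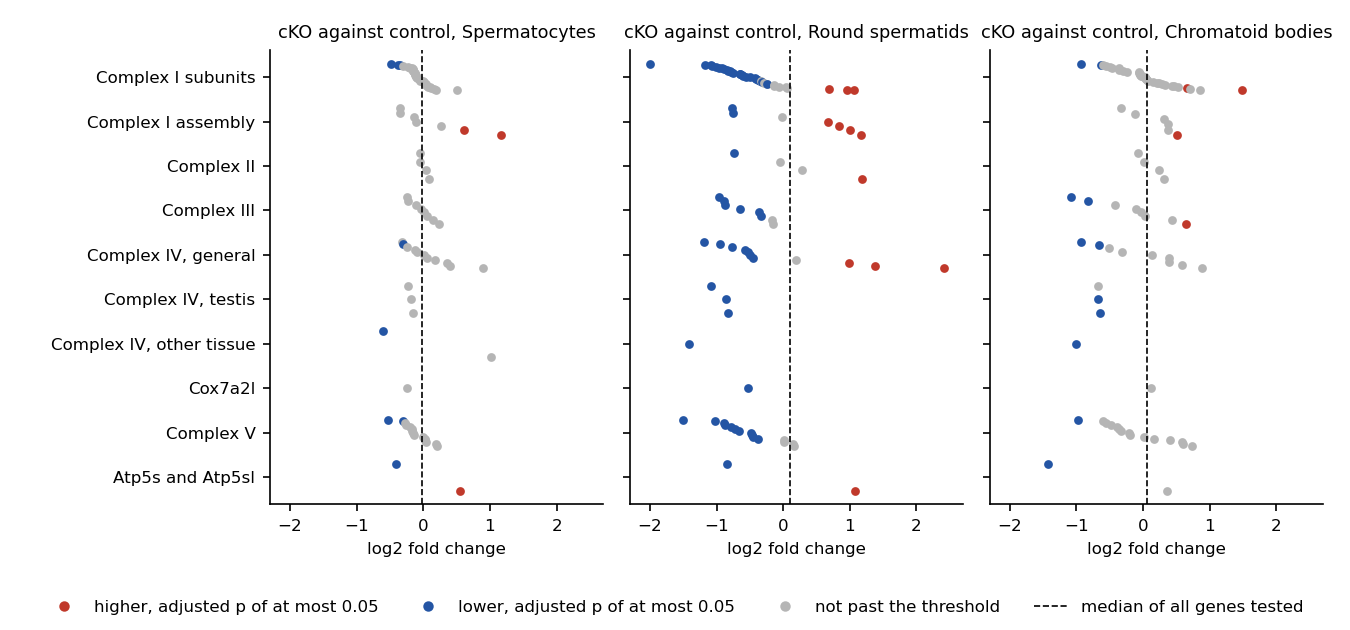
Log2 fold change between cKO and control of each member (x axis, TMM scale), by complex or role (y axis), in Spc, RS and CBs, with 1 point per gene in red where called higher, blue where called lower and grey otherwise (edgeR adjusted p of at most 0.05), and the median of all genes tested as a dashed line. In RS most subunits lie to the left of that line, which stands at 0.11 (58 of 88 members called lower, and 20 with library size), while the X-linked Cox7b lies farthest to the right at 2.41.

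In complex I, 25 of 36 subunits were lower in cKO RS and 3 were higher on the TMM scale, against 8 lower and 14 higher with library size. Ndufa13 (chr8:69894180-69902558, minus strand, GRCm38) changed most, from 96.0, 72.1 and 111 CPM in control to 22.3, 24.5 and 23.4 CPM in cKO RS (log2 fold change -1.99 ± 0.15, edgeR adjusted p = 1.13e-05). The 3 control values were spread and the lowest of them was still above all cKO values. Their order was that of the summed late spermatid markers in the same libraries, at 36039.6, 28284 and 37464 CPM. Ndufb7, an accessory subunit, had 43.0, 40.0 and 43.9 CPM in control and 18.1, 17.5 and 20.6 CPM in cKO RS (log2 fold change -1.17 ± 0.10, edgeR adjusted p = 1.99e-05), and Ndufa5 had 53.7, 48.3 and 47.6 CPM in control and 22.1, 23.4 and 24.8 CPM in cKO (log2 fold change -1.09 ± 0.09, edgeR adjusted p = 2e-05). The catalytic subunits of the NADH-oxidizing arm moved less. Ndufv1, which holds the flavin that takes electrons from NADH, had a log2 fold change of -0.43 ± 0.07 and Ndufs1, an iron-sulfur subunit, one of -0.24 ± 0.08. With library size Ndufv1 (0.19) and Ndufs1 (0.38) are called higher, and the call of Ndufs1 is lost without cKO RS replicate 1, 2 or 3 and without control RS replicate 2 or 3.

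The 3 complex I subunits that were higher in cKO RS had low levels. Ndufc2 stood at 5.47, 6.57 and 5.80 CPM in control and 12.6, 8.91 and 13.3 CPM in cKO RS (log2 fold change 0.96 ± 0.19, edgeR adjusted p = 0.00189). The other two are X-linked: Ndufb11 had 1.86, 2.69 and 2.48 CPM in control and 4.32, 4.15 and 6.17 CPM in cKO (log2 fold change 1.06 ± 0.24, edgeR adjusted p = 0.00464), and Ndufa1 had 4.65, 3.46 and 2.93 CPM in control and 5.55, 5.43 and 6.86 CPM in cKO (log2 fold change 0.69 ± 0.22, edgeR adjusted p = 0.0207). No cKO value fell below a control value for these genes, but the call of Ndufa1 is lost without control RS replicate 2 (0.64) or 3 (0.54). Genes on the X chromosome are silenced in pachytene spermatocytes and largely stay so in round spermatids. The 3 X-linked members, with Cox7b, were all called higher in RS (median 1.06) with either scaling. Of the 85 autosomal members tested, 9 were higher and 58 lower on the TMM scale (median -0.53). Library size leaves 20 of these 58 called lower. It calls 35 members higher in all, the 3 X-linked ones among them, so most members called higher are then autosomal.

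Of the 7 complex I assembly factors, 4 were higher in cKO RS and 2 lower, and with library size 4 were higher and none lower. Ndufaf3 (chr9:108565537-108567434, minus strand, GRCm38) stood at 176, 165 and 187 CPM in control and 274, 345 and 322 CPM in cKO RS (log2 fold change 0.83 ± 0.09, edgeR adjusted p = 0.000103). Ndufaf5 stood at 8.34, 7.70 and 8.19 CPM in control and 14.6, 18.2 and 15.8 CPM in cKO (log2 fold change 1.00 ± 0.13, edgeR adjusted p = 0.000231). Ndufaf7, which encodes an arginine methyltransferase acting on a complex I subunit, stood at 25.1, 28.6 and 26.2 CPM in control and 42.1, 44.9 and 40.1 CPM in cKO (log2 fold change 0.67 ± 0.09, edgeR adjusted p = 0.000311). For each of these genes, and for Atp5sl with 42.6, 45.7 and 43.1 CPM in control and 92.6, 97.1 and 88.5 CPM in cKO RS (log2 fold change 1.08 ± 0.07, edgeR adjusted p = 6.16e-06), the highest cKO value was in replicate 2, the cKO RS library with the lowest macrophage, Leydig and Sertoli marker sums. Ndufaf6 was also called higher, at under 1 CPM in every library (1.17 ± 0.44), but not by DESeq2 (adjusted p = 0.113), which called the other 11 of the 12 members called higher in RS. Ndufaf1 (-0.77 ± 0.16) and Ndufaf2 (-0.75 ± 0.08) were lower. Ndufaf4, a partner of Ndufaf3, was not called (-0.02 ± 0.26).

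The 4 subunits of complex II went different ways in RS on the TMM scale, while library size gave 3 higher and 0 lower (median 0.73). The membrane anchor gene Sdhd (chr9:50596357-50603812, minus strand, GRCm38) stood at 21.4, 23.6 and 17.2 CPM in control and at 48.1, 48.2 and 45.3 CPM in cKO RS (log2 fold change 1.19 ± 0.12, edgeR adjusted p = 6.58e-05). The cKO values were close together and all above the controls. Sdhb, the iron-sulfur subunit, stood at 77.8, 76.4 and 75.0 CPM in control and 45.8, 45.1 and 47.0 CPM in cKO (log2 fold change -0.73 ± 0.07, edgeR adjusted p = 3.38e-05). Sdha (-0.05 ± 0.07, adjusted p = 0.531 by edgeR) and Sdhc, the other anchor (0.28 ± 0.18, adjusted p = 0.194 by edgeR), were not called, and Sdha is called higher with library size (0.57).

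In complex III, 6 of 8 subunits were lower in cKO RS and none was higher on the TMM scale, against 3 lower and 3 higher with library size. On the TMM scale none of the 8 was higher at an unadjusted p under 0.05 or by DESeq2, which called all 8 lower. Uqcrfs1, the Rieske iron-sulfur protein, stood at 109, 116 and 107 CPM in control and 56.1, 53.7 and 60.0 CPM in cKO RS (log2 fold change -0.97 ± 0.07, edgeR adjusted p = 1.22e-05). Uqcrc1, a core protein, stood at 316, 319.8 and 313 CPM in control and 200.2, 192 and 211 CPM in cKO (log2 fold change -0.65 ± 0.06, edgeR adjusted p = 3.03e-05), and both genes had groups far apart. The 2 that were not called were Uqcrc2 (-0.17 ± 0.08) and Uqcrh (-0.16 ± 0.08).

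Of the 11 general forms of complex IV, 7 were lower and 3 higher in cKO RS on the TMM scale, and 2 were lower and 5 higher with library size. Of the lower ones Cox7a2, the general form of subunit 7a, changed most, from 206, 181 and 198 CPM in control to 80.9, 88.5 and 86.8 CPM in cKO RS (log2 fold change -1.19 ± 0.07, edgeR adjusted p = 3.67e-06). Cox5a stood at 183, 179.8 and 176 CPM in control and 101, 109 and 107 CPM in cKO (log2 fold change -0.77 ± 0.06, edgeR adjusted p = 1.48e-05). Cox4i1, the general form of the largest nuclear subunit, had a smaller difference (-0.45 ± 0.06) that is called higher with library size (0.17). Ndufa4l2 fell from 36.5, 44.9 and 41.2 to 13.1, 18.0 and 14.9 CPM (log2 fold change -1.41 ± 0.14, edgeR adjusted p = 5.05e-05), whereas its paralog Ndufa4, at 2.43, 2.87 and 2.39 CPM in control and 7.81, 5.27 and 6.97 CPM in cKO RS, was higher (log2 fold change 1.38 ± 0.21, edgeR adjusted p = 0.000506). The other two that were higher, Cox7b and Cox8a, are the general partners of the testis forms described below. Cox7a2l, which links complexes III and IV into supercomplexes, had a log2 fold change of -0.53 ± 0.08 that turns to 0.09 with library size.

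In ATP synthase, 11 of 15 subunits were lower in cKO RS and none was higher on the TMM scale, where library size gave 4 lower and 5 higher. On the TMM scale none was higher at an unadjusted p under 0.05 or by DESeq2. Atp5g1 (chr11:96068852-96075670, minus strand, GRCm38) stood at 53.8, 53.1 and 62.4 CPM in control and 20.7, 18.2 and 20.5 CPM in cKO RS (log2 fold change -1.51 ± 0.10, edgeR adjusted p = 5.86e-06), whereas the other c subunit genes, Atp5g2 (0.02 ± 0.12) and Atp5g3 (0.15 ± 0.20), were not called. The 2 genes of the catalytic head differed from each other. Atp5b fell from 614, 597 and 607 to 452, 467 and 483 CPM (log2 fold change -0.37 ± 0.05, edgeR adjusted p = 0.000417), and Atp5a1, the alpha subunit, had 187, 184 and 179.6 CPM in control and 185, 174 and 195 CPM in cKO (log2 fold change 0.01 ± 0.06, edgeR adjusted p = 0.899). Atp5b is called higher with library size (0.24).

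The lower members differed in how far they depended on the scaling. Of the 58 called lower on the TMM scale, 20 were also called lower with library size, among them Ndufa13, Atp5g1, Ndufa4l2, Cox7a2, Ndufb7, Ndufa5, Uqcrfs1, Cox6b2 and Cox8c, and 8 were called higher, among them Atp5b, Cox4i1, Ndufv1 and Ndufs1. All 12 members called higher on the TMM scale were called higher with library size too. With the threshold of 1.5 added, which 26.4% of all genes passed in RS, Cox7b was higher and Ndufa13 and Atp5g1 were lower.

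In RS the 3 testis forms of complex IV were lower in cKO, and 2 of their general partners were higher. Cox8c stood at 247, 252 and 249 CPM in control RS and 138, 130.1 and 145 CPM in cKO RS (log2 fold change -0.85 ± 0.06, edgeR adjusted p = 8.73e-06), and its general partner Cox8a at 3.99, 3.64 and 4.56 CPM in control and 8.62, 6.04 and 9.58 CPM in cKO (log2 fold change 0.99 ± 0.21, edgeR adjusted p = 0.0032). Cox7b2 stood at 98.4, 93.1 and 101 CPM in control and 56.1, 48.5 and 59.5 CPM in cKO (log2 fold change -0.83 ± 0.09, edgeR adjusted p = 8.78e-05), and Cox7b (chrX:106015700-106022450, plus strand, GRCm38) at 0.41, 0.355 and 0.604 CPM in control and 2.38, 1.15 and 3.74 CPM in cKO (log2 fold change 2.41 ± 0.47, edgeR adjusted p = 0.0021). In both pairs the testis form was lower in every cKO library than in any control library and the general form was higher. Cox6b2 stood at 279, 288 and 264 CPM in control and 126, 152 and 116 CPM in cKO (log2 fold change -1.08 ± 0.10, edgeR adjusted p = 3.89e-05), and Cox6b1 at 7.30, 8.88 and 10.9 CPM in control and 11.2, 7.05 and 12.6 CPM in cKO, with overlapping groups (log2 fold change 0.19 ± 0.24, edgeR adjusted p = 0.51). With library size Cox6b2 and Cox8c are still called lower and Cox7b2 differs by -0.21 without a call. Cox8a, Cox7b, Cox6b1 and Ndufc2 had their lowest cKO value in replicate 2 and their highest in replicate 3, as the somatic marker sums did, and without cKO RS replicate 3 the log2 fold change of Cox7b was 2.00 and that of Cox8a 0.90.

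The ratio of a testis form to its general partner within a library does not depend on the scaling. The count ratio of Cox7b2 to Cox7b was 167 to 262 in control RS and 15.9 to 42.0 in cKO RS, a log2 difference of -3.13 (exact permutation test, two-sided, p = 0.1). With transcript counts summed per gene the ratios were lower, at 57.4 to 90.1 and 5.48 to 14.3, and the difference was -3.08. The ratio of Cox8c to Cox8a was 54.5 to 69.1 in control and 15.1 to 21.5 in cKO RS (log2 difference -1.83, exact permutation p = 0.1), and that of Cox6b2 to Cox6b1 was 24.2 to 38.2 and 9.21 to 21.6 (-1.25, exact permutation p = 0.1). Groups of 3 against 3 cannot give an exact p below 0.1, and these 3 ratios did not overlap between genotypes. In Spc the ratio of Cox7b2 to Cox7b was 45.2 to 104 in controls and 22.0 to 37.3 in cKO (-1.10, exact permutation p = 0.1), that of Cox8c to Cox8a differed by -0.58 (exact permutation p = 0.1) and that of Cox6b2 to Cox6b1 by -0.38 with overlap (exact permutation p = 0.3). In CBs the ratio of Cox8c to Cox8a differed by -1.14 (exact permutation p = 0.114) and that of Cox6b2 to Cox6b1 by -1.45 (exact permutation p = 0.229), both with overlap, and that of Cox7b2 to Cox7b could not be formed, as Cox7b was at 0 in 1 control and 1 cKO library. Over the 8 ratio tests of Spc, RS and CBs the smallest adjusted p was 0.152.

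Per kb of RefSeq exon length the testis forms were among the most abundant members in control Spc. Cox8c had 796 CPM per kb and ranked 1 of 89, Cox6b2 had 389.6 and ranked 2, and Cox7b2 had 244 and ranked 5. Cox8a had 14.5, Cox6b1 24.2 and Cox7b 2.09 CPM per kb in the same libraries. The per-length ratio of Cox7b2 to Cox7b was 117 in control Spc, 56.5 in cKO Spc, 393 in control RS and 41.6 in cKO RS. The 3 testis forms took 9.51% ± 0.335 (SD, n = 3) of all member counts in control RS and 6.91% ± 0.271 in cKO RS, and 10.2% ± 0.287 and 9.17% ± 0.216 in Spc. In Spc none of the 3 was called by itself (by edgeR, 1 passed an unadjusted p of 0.05, and DESeq2 called none): the log2 fold changes were -0.23 ± 0.09 for Cox6b2, -0.15 ± 0.15 for Cox7b2 and -0.18 ± 0.09 for Cox8c. Cox7b in Spc, at 1.41, 2.96 and 2.68 CPM in control and 4.57, 3.12 and 5.49 CPM in cKO, missed the threshold (log2 fold change 0.90 ± 0.35, edgeR adjusted p = 0.0908).

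**Figure D2:**
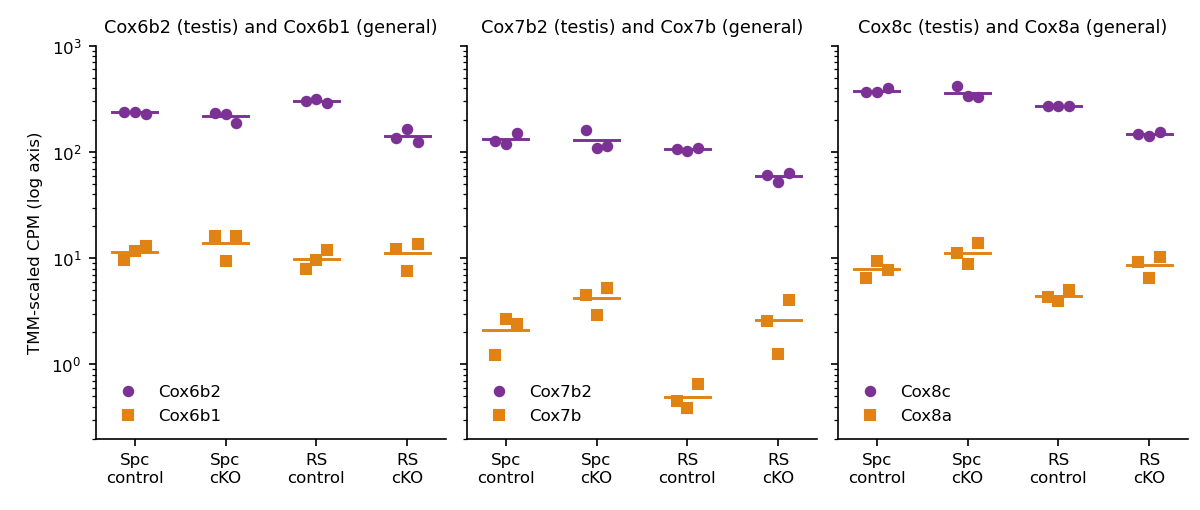
Levels of the testis forms Cox6b2, Cox7b2 and Cox8c (circles) and of their general partners Cox6b1, Cox7b and Cox8a (squares) in control and cKO Spc and RS (CPM on the TMM scale of the 12 cell libraries, log axis), with 1 point per library and the group mean as a line. In RS the testis forms lie lower in cKO than in control libraries and Cox7b and Cox8a lie higher, directions that library size keeps (Cox7b2 by -0.21), with Cox7b at 0.387 to 0.658 CPM in control RS and above 1 CPM in every cKO RS library.

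In CBs 4 of 84 members were higher and 11 lower in cKO, beside 18.1% and 18.4% of all 14051 genes tested, and the median member differed by -0.02 against 0.07 for all genes. None passed the 1.5 threshold by edgeR, at an unadjusted p under 0.05 or by DESeq2, where 11.3% of all genes did. Members made up 0.192% ± 0.0261 (SD, n = 4) of gene counts in control CBs and 0.164% ± 0.0264 (n = 3) in cKO CBs. Late spermatid markers summed to 2468 to 5200.3 CPM in control and 515 to 587 CPM in cKO CBs, and Leydig markers to 16.3 to 62.4 CPM in control and 46.8, 293 and 431 CPM in cKO CBs.

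Atp5s, known as coupling factor B, had the largest fall in CBs, from 12.6, 17.8, 11.9 and 16.7 CPM in control to 6.61, 3.68 and 5.71 CPM in cKO (log2 fold change -1.42 ± 0.27, edgeR adjusted p = 0.0015). Uqcrfs1 fell from 48.9, 51.5, 49.9 and 44.4 to 32.0, 30.8 and 20.2 CPM (log2 fold change -0.83 ± 0.20, edgeR adjusted p = 0.00559), and Ndufa13 from 48.2, 34.3, 66.8 and 53.7 to 31.2, 23.5 and 24.6 CPM (log2 fold change -0.93 ± 0.23, edgeR adjusted p = 0.00687). The groups of these 3 genes were apart. Cox7a2 (-0.93 ± 0.23), Uqcrb (-1.08 ± 0.28), Atp5g1 (-0.97 ± 0.34), Ndufa4l2 (-1.01 ± 0.35), Cox5a (-0.65 ± 0.19) and Ndufv2 (-0.63 ± 0.23) were also called lower. Among the testis forms Cox8c stood at 167, 97.2, 125 and 152 CPM in control and 101, 72.7 and 86.6 CPM in cKO CBs, with overlap (log2 fold change -0.64 ± 0.20, edgeR adjusted p = 0.0259), and Cox6b2 at 107, 117, 70.9 and 70.0 CPM in control and 75.9, 37.3 and 56.1 CPM in cKO, also with overlap (log2 fold change -0.68 ± 0.25, edgeR adjusted p = 0.0484). The fall of Cox6b2 turns to 0.13 when transcript counts are summed per gene, and Cox7b2 was not called (-0.68 ± 0.32, adjusted p = 0.108 by edgeR). The calls of Cox6b2 and Cox8c are lost without cKO CB replicate 2 or 3 and without control CB replicate 1, that of Cox6b2 also without control CB replicate 2 and that of Cox8c without control CB replicate 4. The call of Cox5a is lost without cKO CB replicate 2, and that of Ndufa4l2 without this library or any 1 of the 4 controls.

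The rises in CBs were fewer. Uqcrh, the hinge protein of complex III, stood at 27.1, 21.4, 27.2 and 24.5 CPM in control and 45.0, 33.2 and 38.9 CPM in cKO CBs (log2 fold change 0.65 ± 0.18, edgeR adjusted p = 0.0143). Ndufaf3 stood at 72.2, 74.0, 73.2 and 79.3 CPM in control and 102, 99.5 and 117 CPM in cKO (log2 fold change 0.51 ± 0.15, edgeR adjusted p = 0.0174), and Ndufb9 at 14.7, 12.3, 15.3 and 12.9 CPM in control and 24.1, 15.7 and 24.6 CPM in cKO (log2 fold change 0.66 ± 0.21, edgeR adjusted p = 0.0251). The 3 genes had groups that did not overlap. Ndufb11 had 2.23, 1.04, 1.37 and 1.52 CPM in control and 1.06, 4.14 and 7.50 CPM in cKO CBs (log2 fold change 1.48 ± 0.52, edgeR adjusted p = 0.0403), and its high values were in the 2 cKO libraries with the high Leydig and macrophage sums, the latter at 16.1, 86.6 and 88.2 CPM. No rise was called each time a library was left out: only 1 of the 4 was called without cKO CB replicate 3 and only 2 without control CB replicate 1, 2 or 4, and only 1 was called with library size, while the lower calls numbered 7 to 12 with a library left out.

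The genotype comparisons of Spc, RS and CBs use different libraries. Ndufaf3 was called higher in all 3, and Atp5g1, Atp5s, Cox5a, Ndufa13 and Ndufa4l2 were called lower in all 3. For Ndufa13 the log2 fold changes were -0.48 in Spc, -1.99 in RS and -0.93 in CBs, for Atp5g1 -0.53, -1.51 and -0.97, and for Ndufaf3 0.62, 0.83 and 0.51. The RS values of these genes, except those of Atp5s and Cox5a, keep their direction and call with library size. On the TMM scale the RS calls of all 6 are made with any 1 library left out. In Spc the calls of Atp5g1 and Ndufaf3 are made each time. Those of Atp5s and Ndufa13 are lost without any 1 of 5 of the 6 libraries, that of Cox5a without any 1 of 3 and that of Ndufa4l2 without control Spc replicate 3. In CBs the calls of Atp5s and Ndufa13 are made each time. Those of Atp5g1 and Ndufa4l2 are lost without any 1 of 5 of the 7 libraries, that of Ndufaf3 without cKO CB replicate 3 or control CB replicate 1 and that of Cox5a without cKO CB replicate 2.

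**Figure D3:**
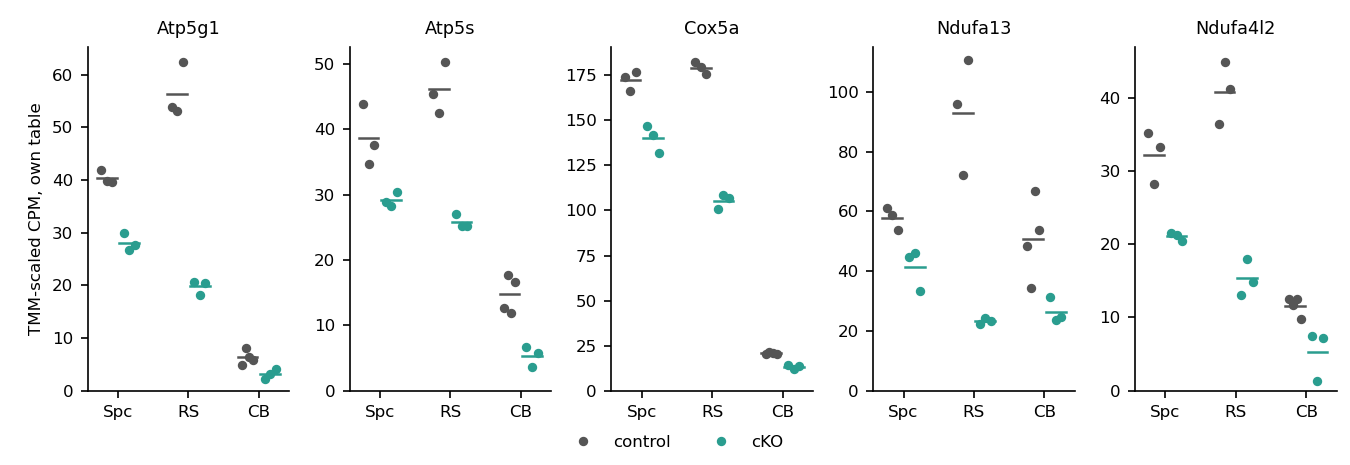
Levels (CPM on the TMM scale of each table, linear axis from 0) of Atp5g1, Atp5s, Cox5a, Ndufa13 and Ndufa4l2, the members called lower in cKO in Spc, RS and CBs, with 1 point per library (grey control, green cKO) and the group mean as a line. Ndufa13 stood at 72.1 to 111 CPM in control RS and 22.3 to 24.5 CPM in cKO RS, and in each panel the cKO points lie below the control points of the same cell type or CBs, also for the RS values of Atp5s and Cox5a that are not called with library size.

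RS were compared with Spc within each genotype, in a fit over the 12 cell libraries whose TMM scale differs from that above. In controls 19 of 89 members were higher in RS and 29 lower, beside 38% and 34.7% of all 18171 genes tested, with a member median of -0.15 and an all-gene median of 0.05. With library size the counts became 1 higher and 76 lower, beside 23.7% and 51.8% of all genes, whose median was then -0.54. The rises below hold on the TMM scale only, apart from that of Ndufa13. Ndufa13 stood at 53.4, 52.6 and 48.1 CPM in control Spc and 105, 78.5 and 121 CPM in control RS (log2 fold change 0.98 ± 0.16, edgeR adjusted p = 0.000176). Atp5g1 stood at 36.7, 35.7 and 35.4 CPM in Spc and 58.7, 57.8 and 67.9 CPM in RS (log2 fold change 0.78 ± 0.10, edgeR adjusted p = 2.32e-05), and Cox6b2 at 238, 239.8 and 230.2 CPM in Spc and 304, 314 and 288 CPM in RS (log2 fold change 0.35 ± 0.11, edgeR adjusted p = 0.011), a rise that turns to -0.23 with library size. For these genes no RS value fell below a Spc value.

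The members that fell from control Spc to control RS did so under either scaling. Ndufc2 fell from 20.6, 27.5 and 28.6 to 5.97, 7.16 and 6.32 CPM (log2 fold change -1.98 ± 0.19, edgeR adjusted p = 3.54e-06) and Sdhd from 46.3, 58.2 and 59.0 to 23.3, 25.7 and 18.7 CPM (log2 fold change -1.27 ± 0.13, edgeR adjusted p = 6.17e-06). Uqcrc2, a core protein of complex III, fell from 141, 151 and 158 to 66.9, 59.9 and 65.5 CPM (log2 fold change -1.23 ± 0.11, edgeR adjusted p = 2.47e-06). The control groups of these genes lay far apart. The log2 fold change was -1.36 ± 0.20 for Atp5g3, which lay between Ndufc2 and Sdhd, -1.21 ± 0.18 for Sdhc and -0.84 ± 0.12 for Ndufa11. All 3 X-linked members were lower in control RS, Cox7b at 1.23, 2.65 and 2.40 CPM in Spc and 0.448, 0.387 and 0.658 CPM in RS (log2 fold change -2.07 ± 0.47, edgeR adjusted p = 0.00188), Ndufb11 by -0.90 ± 0.29 and Ndufa1 by -0.62 ± 0.25 (log2 differences). The calls of Ndufb11 and Ndufa1 are lost without control Spc replicate 2 or 3, that of Ndufb11 also without control RS replicate 1 and that of Ndufa1 without control RS replicate 2 or 3. Leydig markers summed to 132 to 410.2 CPM in control Spc and to 7.74 to 7.88 CPM in control RS, on each table's own scale, and Sertoli markers to 347 to 927 and 52.3 to 65.9 CPM.

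Among the testis forms, Cox8c fell from 364, 368 and 405 CPM in control Spc to 269, 274 and 271 CPM in control RS (log2 fold change -0.48 ± 0.09, edgeR adjusted p = 0.000424), and Cox7b2 was not called (-0.32 ± 0.15). In cKO mice all 3 testis forms fell: Cox8c had 415, 337 and 332 CPM in Spc and 149, 141 and 156 CPM in RS (log2 fold change -1.28 ± 0.09, edgeR adjusted p = 4.22e-06). Cox7b2 had 163, 109.8 and 115 CPM in Spc and 60.6, 52.4 and 64.2 CPM in RS (log2 fold change -1.13 ± 0.15, edgeR adjusted p = 0.000125), and Cox6b2 had 235, 229 and 187 CPM in Spc and 136, 165 and 125 CPM in RS (log2 fold change -0.61 ± 0.11, edgeR adjusted p = 0.000852). The general partners were not called in cKO mice (Cox6b1 -0.32 ± 0.26, Cox7b -0.68 ± 0.41 and Cox8a -0.37 ± 0.22), while in controls Cox8a was lower in RS (-0.83 ± 0.23) and Cox6b1 was not called (-0.21 ± 0.26).

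In cKO mice 64 of 89 members were lower in RS than in Spc and 1 was higher (Atp5sl, 0.28 ± 0.07), beside 26.6% and 22.8% of all genes, and with library size the counts were 60 and 1. The member median was -0.59 and the all-gene median 0.05. Complex I had 28 of 36 subunits lower, complex III 8 of 8 and ATP synthase 12 of 15, and none of these was called higher by edgeR, at an unadjusted p under 0.05 or by DESeq2. Uqcrc2 fell from 179, 140.3 and 135 to 58.3, 52.3 and 58.4 CPM (log2 fold change -1.43 ± 0.11, edgeR adjusted p = 5.85e-06), and Cox4i1 from 314, 254 and 241 to 125, 121 and 128 CPM (log2 fold change -1.12 ± 0.09, edgeR adjusted p = 8.74e-06). The X-linked members were not called in cKO mice.

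**Figure D4:**
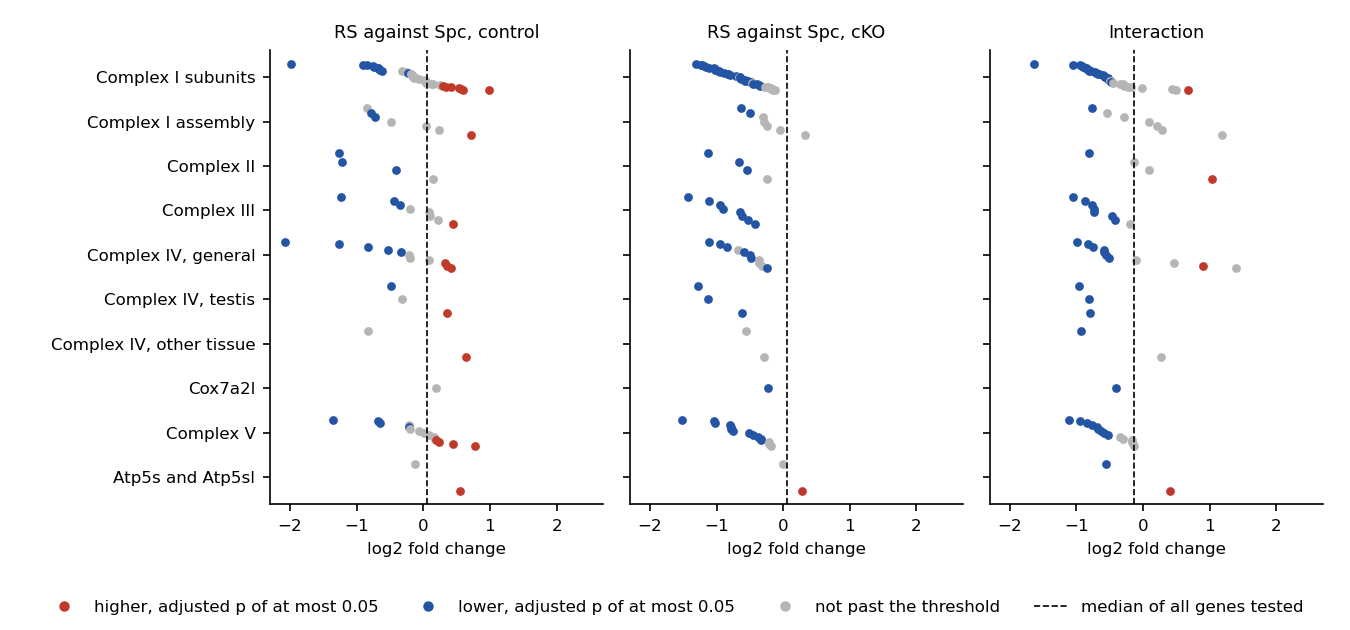
Log2 difference between RS and Spc of each member (x axis, TMM scale of the 12 cell libraries), by complex or role (y axis), in control mice, in cKO mice and as the interaction of both, with 1 point per gene in red where called higher, blue where called lower and grey otherwise, and the median of all genes as a dashed line. Points spread to both sides of 0 in controls (19 higher, 29 lower, but 1 and 76 with library size) and lie mostly below 0 in cKO mice (1 higher, 64 lower, and 1 and 60 with library size) and in the interaction (4 and 54, but 25 and 2 with library size).

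The interaction term of the same fit tests whether the step from Spc to RS differed between genotypes. It was called negative for 54 members and positive for 4 on the TMM scale, beside 24.1% and 19% of all genes, with a member median of -0.55 and an all-gene median of -0.13. With library size the counts became 2 negative and 25 positive, beside 3% and 44.5% of all genes, with medians of 0.16 for the members and 0.58 for all genes. The term was negative and largest in size for Ndufa13 (-1.63 ± 0.22, edgeR adjusted p = 0.000541), whose level rose in controls and stood at 43.8, 43.5 and 31.6 CPM in cKO Spc and 24.0, 26.5 and 25.2 CPM in cKO RS. Atp5g1 followed (-1.11 ± 0.14, edgeR adjusted p = 0.000326), with 29.3, 25.2 and 26.2 CPM in Spc and 22.4, 19.7 and 22.1 CPM in RS. Of the positive terms that of Sdhd was largest (1.03 ± 0.18, edgeR adjusted p = 0.00157): its level, which fell in controls, was 64.1, 54.9 and 61.4 CPM in cKO Spc and 51.9, 52.1 and 48.9 CPM in cKO RS. Ndufa4 (0.90 ± 0.31), Ndufc2 (0.68 ± 0.25) and Atp5sl (0.40 ± 0.10) were the other positive ones, and all 4 stay positive and called with library size. The call of Ndufc2 is lost without any 1 of 9 of the 12 libraries. The testis forms had negative terms, Cox6b2 -0.97 ± 0.15, Cox7b2 -0.81 ± 0.21 and Cox8c -0.80 ± 0.12, none of them called with library size, and the terms of Cox7b (1.39 ± 0.62, edgeR adjusted p = 0.0892), Cox8a (0.46 ± 0.31) and Cox6b1 (-0.11 ± 0.37) were not called. Without control Spc replicate 1 or cKO RS replicate 2 the term of Cox7b is called (1.66 and 1.73). Complex I (23 of 36 negative, 1 positive), complex III (7 of 8, none positive) and ATP synthase (9 of 15, none positive) were mostly negative on the TMM scale, where none of the complex III and ATP synthase genes was positive at an unadjusted p under 0.05 or by DESeq2. With library size the class medians were 0.15 in complex I, -0.023 in complex III and 0.13 in ATP synthase.

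Members had short 3′UTRs. The annotated 3′UTR of a gene was taken from its coding transcript with the most counts per nucleotide over the Spc and RS libraries. By this length 71 of 89 were under 350 nt and 17 were between 350 and 1500 nt. Ndufaf4 alone exceeded 1500 nt, at 3026 nt. Under 350 nt lay 79.8% of the members against 36.7% of 19165 genes, and the medians were 133 and 608 nt. Among all genes of the RS comparison the short class had a median log2 fold change of -0.21 (44.1% called lower and 29.7% higher) and the class of 350 to 1500 nt one of 0.35 (27.5% lower and 45.2% higher). Members of the short class had a median of -0.56 with 51 of 70 (72.9%) called lower and 7 higher, and members of the middle class one of -0.07 with 7 of 17 lower and 5 higher. These medians are on the TMM scale and are given without a test.

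Transcripts annotated as NMD targets or with a retained intron were compared with coding transcripts in the transcript tables, where shared reads had been split equally. In RS 18 of 184 coding transcripts of members were higher in cKO and 119 lower, beside 40.7% and 35.9% of all coding transcripts, and 6 of 109 NMD or retained-intron transcripts were higher and 69 lower, beside 42.3% and 30.5%. With library size these became 63 and 46, and 43 and 22. That scaling put the median of all transcripts at 0.59 in RS and at -0.36 in CBs. The shares of all transcripts called under it were not counted. In Spc 6 of 185 coding transcripts were higher and 12 lower, beside 15.2% and 14.8%, and 5 of 110 NMD or retained-intron transcripts were higher and 2 lower, beside 18.2% and 7.86%. In CBs the counts were 14 higher and 9 lower of 113 (beside 19% and 18.8%) and 7 higher and 1 lower of 49 (beside 17.2% and 12.9%), and with library size edgeR called 0 higher and 8 lower, and 0 higher and 1 lower (0 and 1 higher at an unadjusted p under 0.05). Among genes with both kinds, the NMD or retained-intron transcripts lay above the coding ones in 26 of 41 genes in RS, in 24 of 41 in Spc and in 13 of 25 in CBs, with a median difference in RS of 0.00769 on the log2 scale.

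The NMD or retained-intron transcripts called higher were those of Ndufaf3, Ndufaf5 and Dmac2 in Spc, these and that of Cox7b in RS, and those of Ndufaf3, Ndufv1, Uqcrh and Cox6b2 in CBs. The 2 retained-intron transcripts of Ndufaf3 rose by 0.62 and 0.65 (log2) in Spc, by 0.90 and 0.90 in RS and by 0.63 and 0.66 in CBs, beside gene-level changes of 0.62, 0.83 and 0.51. The NMD transcript of Dmac2 (Atp5sl) rose by 0.61 in Spc and 1.26 in RS, and the retained-intron transcript of Ndufaf5 by 1.18 and 1.22. In CBs the retained-intron transcript of Cox6b2 rose by 1.11 on the TMM scale, beside a change of 0.13 in the sum of the gene's transcript counts. None of the CB transcripts named here was called higher with library size.

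The sequences that nuclear regulators of respiratory genes are known to bind were sought in promoters, as a property that the name rule did not use. In RefSeq promoters of GRCm38.p6 (250 bases before to 50 after the start), 75 members were matched. The NRF1 motif (GCGCA, any base, then GCGC, or its reverse complement on the other strand) was in 19 of them (25.3%) against 5.19% of 27025 genes, and the GABP motif CCGGAAG in 17 (22.7%) against 9.93%. TGACGTCA, the cAMP response element, was in 4 (5.33%) against 2.03%. Sdhd, Cox6a1, Atp5h and Atp5k held both of the first 2. Among members with the NRF1 motif 11 of 19 were called lower in RS and 2 higher on the TMM scale, and among those with the GABP motif 11 of 17 and 2, beside 58 and 12 of all 88 members and 34.3% and 38.4% of all genes. With library size these became 1 lower and 6 higher, and 3 lower and 7 higher. Stretches of 30 bases around the NRF1 motif, in capitals, are shown for a core subunit that was lower in cKO RS (Uqcrc1, TMM scale), an accessory subunit that was lower (Ndufa5), one that was not called (Sdha) and 2 that were higher (Sdhd and Ndufaf5).
Uqcrc1, chr9:108936643-108936672, plus strand: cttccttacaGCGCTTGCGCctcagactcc
Ndufa5, chr6:24527697-24527726, minus strand: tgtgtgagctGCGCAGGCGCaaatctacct
Sdha, chr13:74350319-74350348, minus strand: cgtttacaggGCGCAGGCGCaccaccactc
Sdhd, chr9:50603909-50603938, minus strand: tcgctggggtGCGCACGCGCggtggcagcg
Ndufaf5, chr2:140170652-140170681, plus strand: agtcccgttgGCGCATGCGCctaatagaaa
The motif was thus present in members that were lower, not called and higher in cKO RS on the TMM scale. With library size Ndufa5 stays called lower, Uqcrc1 is not called and Sdha is called higher. Neither Cox6b2 nor Cox7b2 had a match to it in this window, and for Cox8c no promoter was matched.

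Neighbouring gene lists of the pathway were counted in the same fits, in which 38.4% of all genes were higher and 34.3% lower in RS, 14% and 14.1% in Spc, and 18.1% and 18.4% in CBs. With library size the shares of all genes were 58.5% and 18.5% in RS and 11.3% and 18.3% in CBs. Of 7 electron carrier and other genes of complexes III and V, 2 were higher and 4 lower in cKO RS on the TMM scale (4 and 1 with library size), with Cycs, the somatic cytochrome c, at a log2 fold change of 0.80 ± 0.18 and Cyct, its testis form, at -0.10 ± 0.14. Of 25 assembly factors of complexes III and IV, 11 were higher and 9 lower (16 and 3 with library size), and of 18 genes of the TCA cycle, which feeds electrons to the chain, 6 were higher and 11 lower (11 and 2). Mitochondrial ribosomal proteins, which serve to translate the mitochondrial genome, had 17 higher and 35 lower of 77 (41 and 15). In Spc these lists had 1 and 1, 2 and 0, 2 and 3, and 7 and 6 genes higher and lower, and in CBs 0 and 2, 2 and 2, 3 and 4, and 5 and 6 (with library size 0 and 2, 1 and 1, 2 and 3, and 2 and 6).

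The respiratory subunits encoded in the mitochondrial genome were taken from the transcript tables for comparison with the nuclear ones. Of 13 such genes 7 passed the filter, and the other 6 were listed at or near 0 in every library. Whether reads of these 6 were lost in counting was not tested, so their values are not read as levels. The 7 were all higher in cKO RS, by 1.46 to 2.23 on the log2 scale (median 1.59, or 2.12 with library size). The largest change was that of mt-Nd6, which stood at only 0.66 to 1.17 CPM in control RS. mt-Co1, the catalytic subunit of complex IV, stood at 1979, 1437 and 1379 CPM in control and 3872, 4445 and 4911 CPM in cKO RS (log2 fold change 1.46 ± 0.16, edgeR adjusted p = 0.000139), and mt-Cytb of complex III at 611, 384 and 357 and 1203, 1341 and 1743 CPM (log2 fold change 1.66 ± 0.23, edgeR adjusted p = 0.000492). The groups were far apart for both genes, while the nuclear Cox4i1, Cox5a and Uqcrfs1 were lower on the TMM scale (Cox4i1 and Cox5a not with library size). In Spc none of the 7 was called by edgeR (1 at an unadjusted p under 0.05, and 1 lower with RLE size factors), and mt-Co1 had 3828, 5374 and 5560.4 CPM in control and 4414, 5292 and 4747 CPM in cKO. In CBs 4 of the 7 were higher on the TMM scale (median 1.43), and 2 with library size (median 0.95). As these libraries of cells were poly(A)-selected and those of CBs were not, levels were not compared between them.

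**Figure D5:**
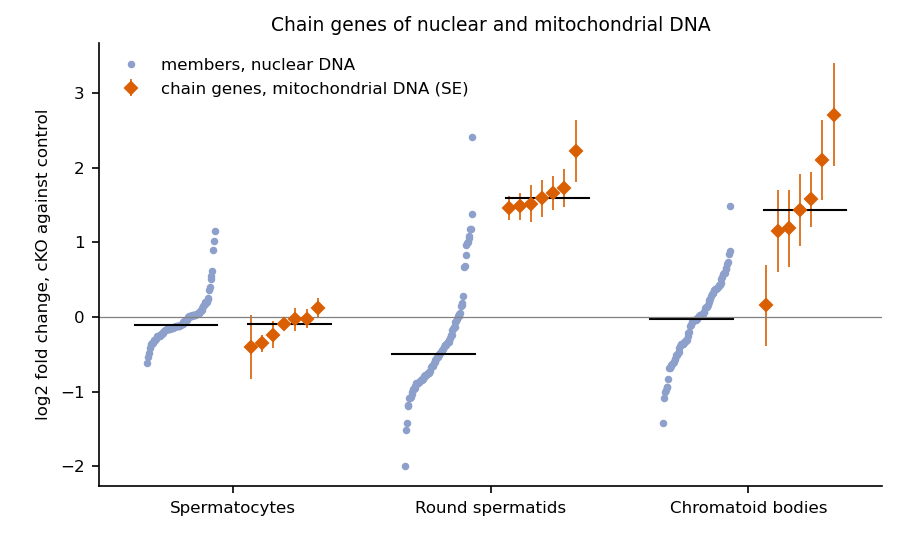
Log2 fold changes between cKO and control (y axis, TMM scale) of the nuclear members (dots) and of the 7 mitochondrially encoded subunits (diamonds, with SE) in Spc, RS and CBs, with 1 point per gene, sorted by value, and medians as lines. In RS the 7 mitochondrially encoded genes lie between 1.46 and 2.23 and the median nuclear member at -0.50, which turns to 0.12 with library size.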

How the data were processed

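RNA of 19 libraries was analysed: 3 cKO and 3 control libraries each of Spc and RS, and 3 cKO and 4 control libraries of CBs. Per the study's methods, reads were trimmed with cutadapt, aligned with STAR to the mouse genome (GRCm38) and counted per gene and transposable element with TEtranscripts. The submitters' processing notes name cutadapt 2.8 and STAR 2.7.1a, and the methods give a later STAR version for these libraries. The authors deposited these as whole counts per gene. They also deposited estimated counts per transcript from featureCounts 2.0.1, in which a read shared by several transcripts was split equally, so transcripts of a gene share values, and these were rounded to whole numbers here. Piwi-interacting RNA tables were not used.

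Groups were taken from the labels. CB columns carry no replicate number of the labels, so CB libraries were numbered in table order and the numbers are names only. Genes with at least 10 counts in at least 3 libraries were tested with edgeR 4.0.16 (R 4.3.3; TMM, quasi-likelihood, two-sided, Benjamini-Hochberg over all genes tested), each genotype comparison on its own table and RS against Spc in a fit over 12 libraries. A call is an adjusted p of at most 0.05. Transcripts needed 20 counts in 3 libraries. Levels (CPM) are counts per 1000000 with TMM factors, and SE is the log2 fold change over the square root of F. Ratios within a library were compared by exact permutation tests (scipy 1.17.1), two-sided. Fits were tested on simulated counts. Depth was 38129415 to 49940226 counts in cells and 3965541 to 16699210 in CBs, so low genes are least precise in CBs. Per the series text each cell library came from its own mouse or mice and CB libraries from pooled mice, and p values measure the spread between these libraries.

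Alternatives were library size, RLE size factors, DESeq2 1.42.0, all genes with any count, gene sums of the transcript counts, the replicate number as a block, each library left out, a fit over 12 or 6 libraries, and 10 counts for transcripts. For transcripts and mitochondrially encoded genes, library size and RLE factors were added after seeing the data. The members, the related lists and the tests were chosen with earlier results of these data known. Genes named by rule were the testis and general pairs, the X-linked members, the core subunits Ndufs1, Ndufv1, Sdha, Sdhb, Uqcrc1, Uqcrfs1, Cox4i1, Cox5a, Atp5a1 and Atp5b, the other tissue forms and Cox7a2l, and in each comparison up to 6 called members with the highest and 6 with the lowest change, a mean of at least 10 CPM in a group and, except for the interaction, no overlap. For the most changed members groups without overlap were thus a condition of naming and no separate support. Other members named were chosen after their values were seen.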

Additional observations from a re-analysis of the deposited data

Results flagged for a closer look

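The difference between the genotype effects in RS and Spc was tested as an interaction (edgeR, TMM scale) and passed the adjusted threshold for 20 of the members named by rule. It was negative, that is the cKO level relative to control was lower in RS than in Spc, for 17 of them. In complex I the difference was -1.63 (log2) for Ndufa13, -1.05 for Ndufb2 and -0.57 for Ndufv1. In complexes II and III it was -0.81 for Sdhb, -1.05 for Uqcrq, -0.87 for Uqcrfs1 and -0.74 for Uqcrc1. In complex IV it was -0.997 for Cox7a2, -0.97 for Cox6b2, -0.92 for Ndufa4l2, -0.81 for Cox7b2, -0.80 for Cox8c, -0.59 for Cox5a and -0.58 for Cox4i1, and the supercomplex factor Cox7a2l had -0.41. In ATP synthase it was -1.11 for Atp5g1 and -0.53 for Atp5b. It was positive for Sdhd (1.03), Ndufc2 (0.68) and Atp5sl (0.40). With library size the 3 positive differences stay called, and of all 54 members called negative 2 stay called. Ndufa4, also called positive as given above, was not named by the rule.

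Among the groups of 4 control CB libraries, Cox6b1 had 1 library apart from the rest. Its levels were 1.36, 1.78, 1.37 and 1.305 CPM, and the gap of the highest to its neighbour was 0.857 of the range. Of 27 items looked at (genes, the share of counts on members, and ratios of testis to general forms) this was the only one. Chance gives about 1 in 20 for each item, so 1 of 27 may be chance.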

How the results depend on the processing

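Library size in place of TMM changed most. In RS it gave 35 members higher and 20 lower and a member median of 0.12, and it turned the log2 fold changes of Atp5b (0.24), Cox4i1 (0.17), Cox7a2l (0.088), Ndufs1 (0.38), Ndufv1 (0.19) and Sdha (0.57). From control Spc to control RS it gave 1 higher and 76 lower and turned Atp5b (-0.40), Cox5a (-0.24), Cox6b2 (-0.23), Cox7a2l (-0.40), Ndufa5 (-0.0195), Ndufv1 (-0.56), Sdhb (-0.45), Uqcrc1 (-0.37) and Uqcrfs1 (-0.14). For the interaction it gave 25 positive and 2 negative, a median of 0.16, and turned Atp5a1 (0.57), Atp5b (0.18), Cox4i1 (0.13), Cox5a (0.12), Cox7a2l (0.30), Ndufs1 (0.41), Ndufv1 (0.14) and Sdha (0.58). The TMM factors were 0.781 to 0.835 in control RS and 1.22 to 1.27 in cKO RS in the RS fit, and 0.716 to 0.767 and 1.13 to 1.18 in the fit over 12 libraries. Over all genes in RS, 6713 were called higher and 6005 lower with TMM, and 10232 and 3238 with library size. In CBs library size left 1 member higher. It gave 63 coding transcripts of members higher and 46 lower in RS, 43 and 22 NMD or retained-intron transcripts, 0 of either kind higher in CBs by edgeR, and 2 mitochondrially encoded genes higher in CBs. The median of all transcripts with library size was 0.59 in RS and -0.36 in CBs.

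Other settings moved fewer values. In Spc DESeq2 called 5 members higher and the fit over 12 libraries 6, and lower members numbered 5 without the count filter, 3 in the fit over 12 libraries and 4 with the replicate block. The fit over the 6 control libraries called 44 members lower in RS than in Spc. Without the count filter 2 members were higher in CBs. With transcript counts summed per gene Cox6b2 in CBs turned to 0.13. With 10 counts for transcripts, 1 NMD or retained-intron transcript was lower in Spc and 2 in CBs, and with RLE factors 1 mitochondrially encoded gene was lower in Spc. The cause of these changes was not tested.

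With each library left out in turn, members higher and lower numbered 3 and 1 to 5 in Spc, 10 to 14 and 51 to 57 in RS, 1 to 4 and 7 to 12 in CBs, 15 to 20 and 24 to 29 from control Spc to RS, 1 and 61 to 66 from cKO Spc to RS, and 2 to 6 and 49 to 55 for the interaction. The log2 difference of the ratio Cox7b2 to Cox7b ranged from -3.50 to -2.80 in RS and from -1.38 to -0.78 in Spc, that of Cox8c to Cox8a from -1.98 to -1.73 in RS, -0.73 to -0.36 in Spc and -1.52 to -0.77 in CBs, and that of Cox6b2 to Cox6b1 from -1.61 to -0.99 in RS, -0.68 to -0.14 in Spc and -2.29 to -0.71 in CBs.

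Samples with the same replicate number did not deviate together in control mice (correlations of -0.16, -0.14 and -0.18 between Spc and RS) and did so in part in cKO mice (-0.02, 0.56 and 0.30), so the number was not used to pair them. Under other numbers control Spc 1 and RS 3 correlated at 0.32, Spc 2 and RS 1 at 0.36, and Spc 3 and RS 2 at 0.41. The remaining control pairs were negative (-0.15, -0.24 and -0.22). Whether libraries of different numbers share mice was not tested, and the replicate block does not pair them. With the replicate block 3 members were higher and 4 lower in Spc, 11 and 55 in RS, 16 and 27 from control Spc to RS, 1 and 64 from cKO Spc to RS, and 5 and 53 for the interaction. For CBs no paired analysis was possible because their columns carry no replicate numbers of the labels.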

Other observations

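Other testis forms of metabolic enzymes lie outside the respiratory chain but were measured in the same libraries. Pdha2, the testis form of the pyruvate dehydrogenase alpha subunit, had a count ratio to the X-linked Pdha1 of 205 to 274.5 in control RS and 17.0 to 40.8 in cKO RS (log2 difference -3.25, exact permutation p = 0.1, adjusted over 18 tests 0.225). The ratio of Pgk2 to the X-linked Pgk1, forms of a glycolytic kinase, was 153 to 167 in control RS and 32.9 to 40.4 in cKO RS (-2.16, exact permutation p = 0.1), and in CBs it was 8.09 to 9.66 and 0.875 to 1.06 (-3.20, exact permutation p = 0.0571, the smallest that 3 against 4 libraries can give). The ratio of Ldhc to Ldha, both autosomal lactate dehydrogenase genes, differed by -0.26 in RS (log2, exact permutation p = 0.1). That of the testis form Slc25a31 to Slc25a5 differed by -1.40 in RS (exact permutation p = 0.1), and that to Slc25a4 by -0.68 with overlap (exact permutation p = 0.4). In Spc these 2 ratios went the other way, by 0.24 and 1.27 (exact permutation p = 0.7 and 0.2), and in CBs they differed by -1.30 and -0.36, all with overlap. The log2 ratio of Cyct to Cycs differed between cKO and control by 1.15 in Spc (exact permutation p = 0.1) and by -0.88 in RS (exact permutation p = 0.1), and no pair passed 0.05 after adjustment.

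Tfam, which packages and transcribes mitochondrial DNA, was lower in cKO libraries while the mitochondrially encoded subunits were higher in RS. It stood at 221, 152 and 242 CPM in control RS and 16.6, 17.6 and 16.7 CPM in cKO RS (log2 fold change -3.59 ± 0.17, edgeR adjusted p = 9.81e-07, and -2.97 with library size). In Spc the log2 fold change of Tfam was -1.87 and in CBs -1.80, both called by edgeR. The order of its 3 control RS values was that of the summed late spermatid markers in the same libraries. A link of Tfam to these markers or to the mitochondrially encoded genes was not tested. Tfam was named after its values were seen. Of 18 genes for mitochondrial DNA upkeep and regulation 9 were higher and 7 lower in RS on the TMM scale, beside 38.4% and 34.3% of all genes (11 and 4 with library size, beside 58.5% and 18.5%). In Spc 1 was higher and 1 lower, beside 14% and 14.1%, and in CBs 5 and 2, beside 18.1% and 18.4% (4 and 3 with library size, beside 11.3% and 18.3%).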
